A study of Homo sapiens with 16 samples.

Results

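The genes described here are 10 core regulators of the G1 phase of the cell cycle: the cyclins CCND1, CCND3, CCNE1 and CCNE2, the cyclin-dependent kinases CDK2, CDK4 and CDK6, the inhibitors CDKN1B and CDKN2A, and RB1. They were taken by name, with earlier results of these data known, as the rows with their Entrez identifiers. These rows are among 16697 genes listed in at least 1 of 16 RNA-seq libraries. All 10 were listed in all 16 libraries and passed the filter on low counts. The cultures are labelled HepG2 and Huh-7, established human liver cancer cell lines. They were treated with 5 µmol/L cinobufagin over 12 or 24 h or left untreated (0 h). Cinobufagin is a steroid from toad venom and blocks the sodium pump (Na,K-ATPase). HepG2 had 1 untreated library, 3 at 12 h and 3 at 24 h, and Huh-7 had 3 at each time. The labels name no vehicle or time-matched control, so drug and time in culture cannot be told apart, and nothing in them states that replicate libraries are separate cultures: a p-value here measures the spread between libraries alone, which may be technical.

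D-type cyclins bind CDK4 or CDK6 and start the phosphorylation of the retinoblastoma protein, the product of RB1. E-type cyclins bind CDK2 and complete it, which frees E2F transcription factors to switch on genes for DNA synthesis. The CDKN1B product p27 restrains cyclin E-CDK2, and the CDKN2A product p16 keeps CDK4 and CDK6 from binding D-type cyclins. Liver cancers often carry changes in this pathway, among them loss of p16 and extra copies of CCND1.

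Total expected counts were 9543048 to 10457853 per library. Levels below are CPM (expected counts scaled to a fixed library total) on the TMM scale, which corrects for library composition, unless FPKM, the value per transcript length, is named. A gene is said to rise or fall where edgeR's quasi-likelihood test gave a Benjamini-Hochberg adjusted p under 0.05 over 13633 genes and the change was at least 2-fold. Changes are log2 values ± SE of the fit, and the SD (n = 3) describes libraries. The untreated HepG2 value is 1 library with no SD, and the model takes its spread to be that of the rest, so every HepG2 change against untreated cells rests on that library.

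The names HepG2 and Huh-7 are used here as the labels give them. Most hepatocyte markers, which define the labelled tissue, were at or near 0 and did not bear out that tissue. Of 10, APOB, TTR and SERPINA1 were listed in no library, AFP, APOA1 and TF did not exceed 0.1 CPM without TMM scaling, and APOE reached 3.93 CPM in HepG2 at 24 h. On the same scale their sum was 13.9 CPM in HepG2 untreated, 10.3 to 13.1 CPM at 12 h and 12.9 to 16.4 CPM at 24 h, and 60.2 to 62.7, 24.7 to 27.1 and 21.9 to 25.4 CPM in Huh-7, where HNF4A averaged 37.8 CPM untreated. The summed level of the keratins KRT7, KRT8, KRT18 and KRT19, EPCAM and the mesenchymal gene VIM, of which KRT8 and KRT18 are also hepatocyte keratins, was 6326.5, 4414.5 to 4438.1 and 2691.2 to 2877.1 CPM in HepG2 and 2967.8 to 3058.5, 1680.5 to 1725.4 and 1295.3 to 1306.9 CPM in Huh-7 at the 3 times. The sum of 3 fibroblast markers was also lower with treatment, at 160.4, 47.6 to 51.9 and 26.4 to 32.4 CPM in HepG2 and 55.2 to 61.8, 18.8 to 21.6 and 20.2 to 21.6 CPM in Huh-7. Blood and endothelial markers summed to at most 6.4 and 3.5 CPM. The part of these shifts in the results below was not tested. In RNA from whole cultures, fewer cells in a cell-cycle phase and less RNA per cell cannot be told apart.

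Promoter windows from RefSeq (GRCh38.p14) were examined for 7 of the 10 genes. Each is 300 bases long, with 250 bases before a transcription start and 50 after it. CCNE2 was left out of this search, and no window was available for CCND1 or CDK2. The windows of CDK4 and CDK6 are shown because these kinases share their partners and differed in their change, and both CDKN2A windows because its 2 starts serve 2 proteins. Each is given 5′ to 3′ on the minus strand of chromosome 12 (chr12:57752261-57752560), chromosome 7 (chr7:92836524-92836823 for the upstream CDK6 start, chr7:92833910-92834209 for the other) or chromosome 9 (chr9:21995275-21995574 for the upstream CDKN2A start, which serves p14ARF, and chr9:21974808-21975107 for the other, which serves p16), with the E-box CACGTG in capitals.
CDK4: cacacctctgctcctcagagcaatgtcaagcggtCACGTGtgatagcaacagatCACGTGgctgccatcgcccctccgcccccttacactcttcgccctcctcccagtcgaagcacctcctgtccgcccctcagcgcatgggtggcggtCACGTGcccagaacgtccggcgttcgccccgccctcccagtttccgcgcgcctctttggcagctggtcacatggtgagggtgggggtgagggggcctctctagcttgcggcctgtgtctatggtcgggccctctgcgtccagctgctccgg
CDK6, upstream start: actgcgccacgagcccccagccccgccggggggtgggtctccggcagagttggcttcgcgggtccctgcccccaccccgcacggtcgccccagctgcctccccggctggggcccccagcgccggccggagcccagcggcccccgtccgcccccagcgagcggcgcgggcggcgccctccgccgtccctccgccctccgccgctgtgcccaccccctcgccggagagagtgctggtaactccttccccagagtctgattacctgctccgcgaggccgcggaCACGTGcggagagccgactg
CDK6, downstream start: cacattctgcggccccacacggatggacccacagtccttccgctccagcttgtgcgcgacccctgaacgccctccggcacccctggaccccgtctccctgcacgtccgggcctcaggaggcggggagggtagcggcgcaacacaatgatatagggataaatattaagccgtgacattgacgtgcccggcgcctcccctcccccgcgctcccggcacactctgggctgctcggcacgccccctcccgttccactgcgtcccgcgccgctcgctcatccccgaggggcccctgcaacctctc
CDKN2A, upstream start: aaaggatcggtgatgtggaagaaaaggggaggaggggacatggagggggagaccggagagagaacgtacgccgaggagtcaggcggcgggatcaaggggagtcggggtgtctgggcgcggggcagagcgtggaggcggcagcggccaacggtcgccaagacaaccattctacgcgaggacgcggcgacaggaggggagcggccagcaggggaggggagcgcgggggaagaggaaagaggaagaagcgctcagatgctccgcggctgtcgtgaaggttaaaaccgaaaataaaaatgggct
CDKN2A, downstream start: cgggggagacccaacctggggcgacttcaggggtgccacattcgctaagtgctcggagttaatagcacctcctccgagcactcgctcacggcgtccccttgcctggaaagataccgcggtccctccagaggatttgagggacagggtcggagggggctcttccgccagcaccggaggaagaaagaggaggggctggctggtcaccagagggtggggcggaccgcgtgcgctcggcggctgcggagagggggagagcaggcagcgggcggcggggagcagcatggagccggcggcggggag

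The CDK4 window holds 3 E-boxes, the 6-letter palindrome read alike on both strands, with first bases 216, 196 and 101 bases before the start. The upstream CDK6 window holds 1, at base 31 after its start, and the remaining 9 of the 11 windows of these genes hold none. Of 35116 promoter windows in the same table, 7.26% hold at least 1 E-box and 0.094% hold 3 or more. No E2F word (TTTCCCGC, TTTCGCGC, TTTGCCGC or TTTGGCGC), AP-1 word (TGACTCA) or CRE (TGACGTCA) was found on either strand of these 11 windows, against 3.31%, 4.95% and 1.85% of all windows. The absence of these words holds for the windows searched alone. For RB1 this was chr13:48476200-48476499 on the plus strand. Other starts of these genes, and all starts of CCND1, CDK2 and CCNE2, were not searched. Which starts these cells use was not tested. A match is a match of letters and not a measured site.

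By FPKM, which allows genes to be compared, CDKN2A was the most abundant of the 10 transcripts in untreated cells of both lines, at 216 FPKM in HepG2 and 200.3 ± 11.8 FPKM in Huh-7. CDK4, CDK2 and CCND3 followed in that order in both lines, at 109, 83.8 and 72.7 FPKM in untreated HepG2 and at 122 ± 1.02, 95.9 ± 3.35 and 71.9 ± 2.88 FPKM in untreated Huh-7. The low end differed: CDK6 was last in untreated HepG2, at 0.79 FPKM, whereas in untreated Huh-7 it stood at 16.8 ± 0.74 FPKM, with a range that overlapped that of CCNE1, and CCNE2 was last at 3.19 ± 0.51 FPKM. CCND1 and CDKN1B, at 19.8 ± 0.92 and 19.7 ± 0.52 FPKM, also overlapped in untreated Huh-7. After treatment CDK2 moved past CDK4 in both lines, and in Huh-7 past CDKN2A as well, at 261 ± 2.64 FPKM at 12 h against 213 ± 0.86 FPKM for CDKN2A. At 24 h in HepG2 the ranges of CCNE2 (12.7 ± 1.45 FPKM) and RB1 (12.45 ± 0.94 FPKM) overlapped, as did those of RB1 and CCNE1 (11.8 ± 0.32 FPKM).

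**Figure D1:**
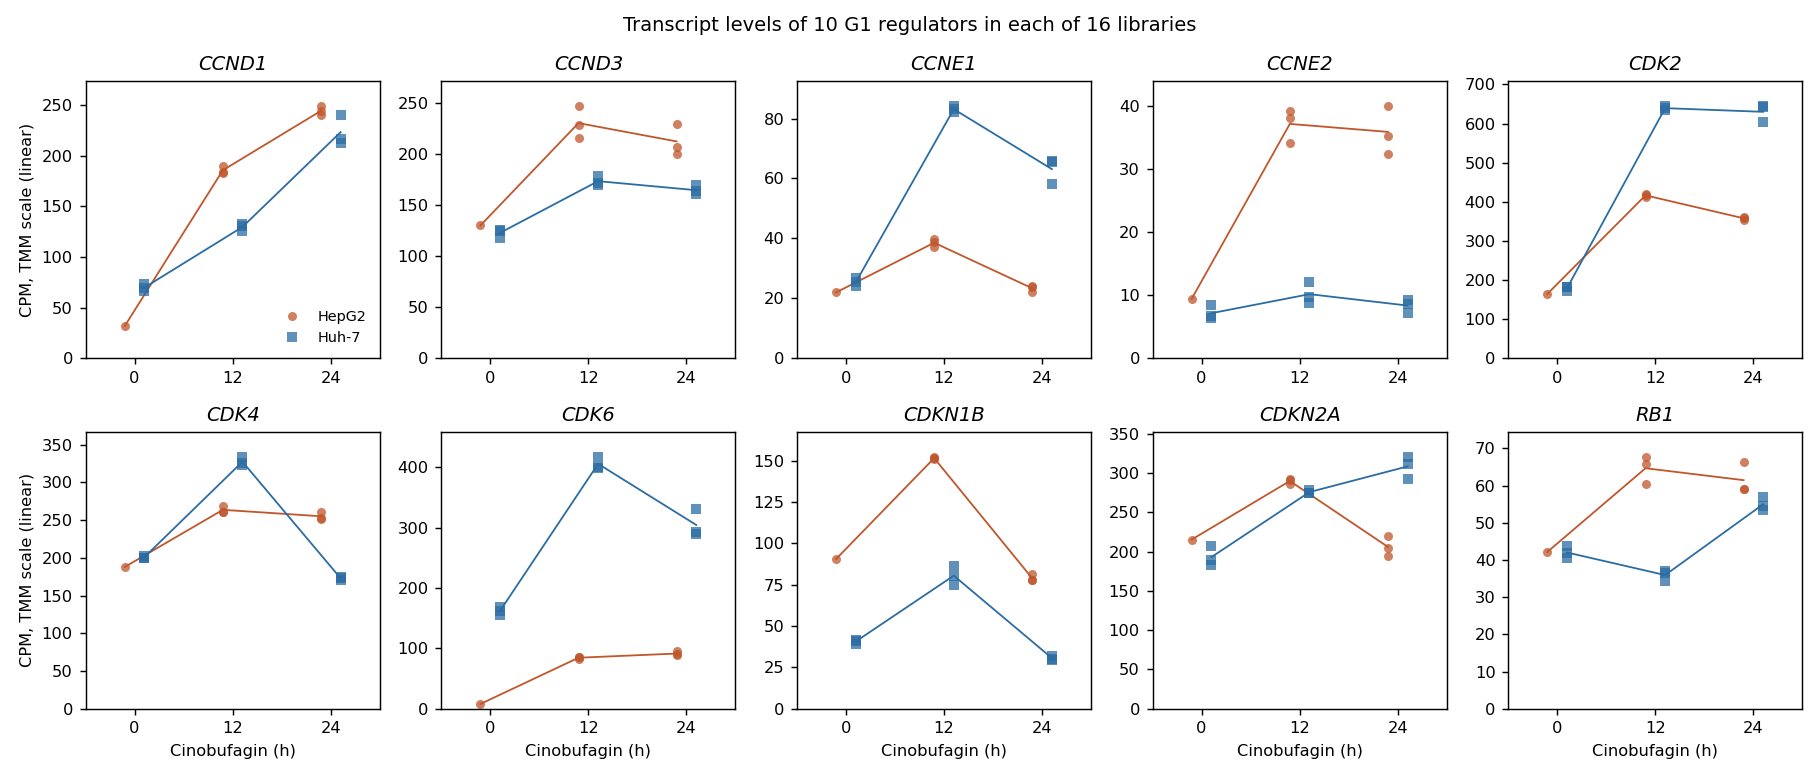
Level of each of the 10 genes (y axis, CPM on the TMM scale, linear from 0, a scale of its own per panel) against hours of cinobufagin (x axis, 0 is untreated) in HepG2 (circles) and Huh-7 (squares). Each point is 1 library, set slightly left (HepG2) or right (Huh-7) of its time, and lines join group means; CDK6 lies at 7.95 CPM in untreated HepG2 and above 82 CPM in every treated HepG2 library, and CDKN1B peaks at 12 h in both lines.

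In HepG2, 4 of the 10 genes rose at 12 h (CCND1, CCNE2, CDK2 and CDK6) and the same 4 rose at 24 h. Over all 13633 genes, 37.8% were called in either direction and 14.3% as higher at 12 h, and 36.3% and 14.1% at 24 h. The median log2 change of the 10 genes was 0.82 at 12 h and 0.63 at 24 h, against −0.09 and −0.01 over all genes tested. In Huh-7, 3 rose at 12 h (CCNE1, CDK2 and CDK6) and 3 at 24 h (CCND1, CCNE1 and CDK2), where 43.8% of all genes were called and 16.8% as higher at 12 h, and 44.6% and 17.8% at 24 h. Their median log2 change was 0.80 at 12 h and 0.55 at 24 h in Huh-7, against −0.10 and −0.04 over all genes. None of the 10 was called lower than in untreated cells in either line, and CDK2 alone was called at both times in both lines.

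By the adjusted p alone, with no fold threshold, 10 and 8 of the 10 genes passed in HepG2 at 12 and 24 h, and 10 and 9 in Huh-7. Over all genes 73.6% and 73.3% passed in HepG2 and 83.8% passed in Huh-7 at each time. Likewise, treated and untreated libraries did not overlap for 10 and 9 of the 10 genes at 12 and 24 h in HepG2, where 88.8% and 88.6% of 13615 named genes had no overlap. The counts were also 10 and 9 in Huh-7, where 84.6% and 84.5% of genes had none. These counts are for the TMM scale. By FPKM, treated and untreated Huh-7 libraries overlapped for CDKN2A at 12 h (211.58 to 213.23 against 191.71 to 213.76). They also overlapped by FPKM for CCNE2 at 12 h (2.92 to 4.04 against 2.85 to 3.78) and for RB1 at 24 h (10.79 to 11.39 against 10.33 to 11.22).

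**Figure D2:**
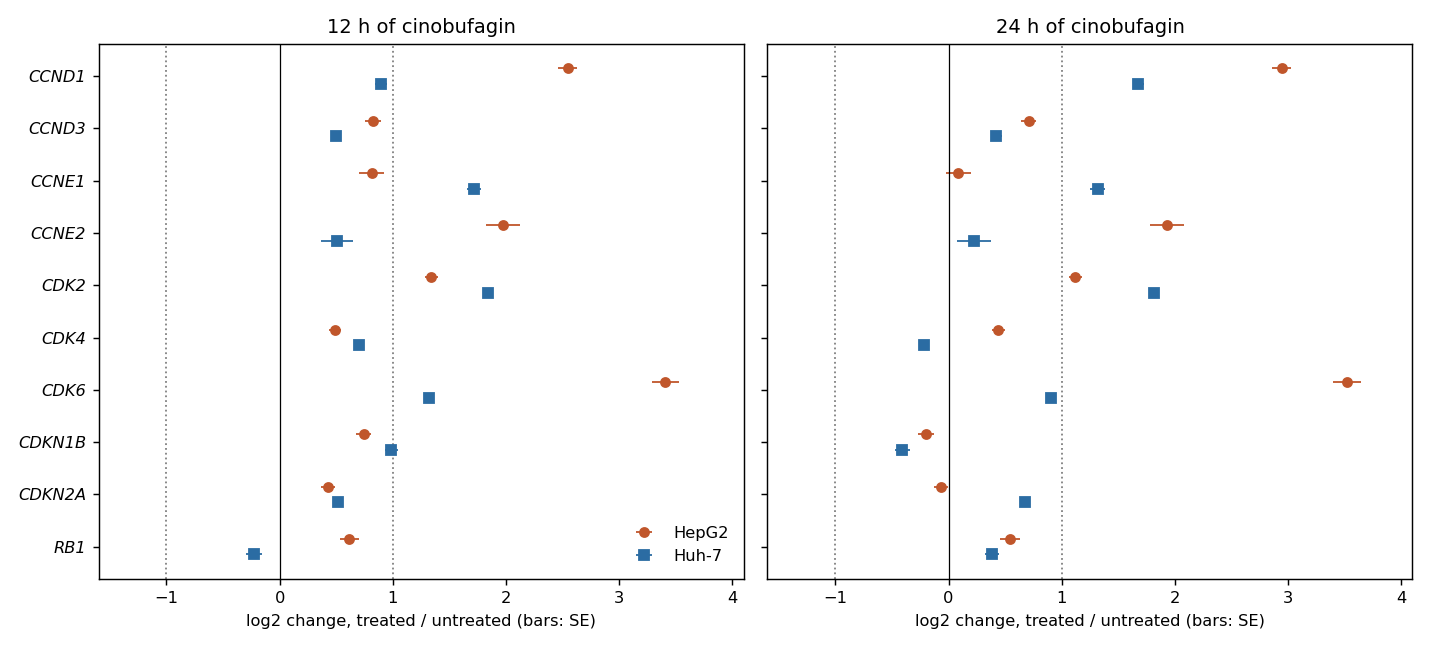
Log2 change of each gene, treated over untreated (x axis; points are edgeR estimates, bars are SE), after 12 h (left) and 24 h (right) in HepG2 (circles) and Huh-7 (squares), with dotted lines at a 2-fold change. CDK6, CCND1 and CCNE2 lie farther right in HepG2, and CCNE1 and CDK2 farther right in Huh-7.

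Among the cyclins of CDK4 and CDK6, CCND1, which encodes cyclin D1, was higher in treated than in untreated cells of both lines. In HepG2 it stood at 31.8 CPM untreated, at 190.3, 183 and 184 CPM at 12 h, and at 240.03, 245 and 249.2 CPM at 24 h. Huh-7 libraries held 69.7, 73.0 and 66.7 CPM untreated, 126, 133 and 131 CPM at 12 h, and 217, 213 and 241 CPM at 24 h. In both lines the 3 times formed steps that did not overlap, with the untreated libraries lowest and the 24 h libraries highest. CCND1 rose 5.84-fold at 12 h and 7.69-fold at 24 h in HepG2 (log2 2.55 ± 0.083 and 2.94 ± 0.082, adjusted p = 1.94e-36 and 5.53e-40). In Huh-7 the 12 h difference was 1.86-fold, short of the threshold, and CCND1 rose 3.2-fold at 24 h (log2 1.68 ± 0.047, adjusted p = 1.01e-40). The change was larger in HepG2 than in Huh-7 by 1.65 ± 0.099 at 12 h and 1.26 ± 0.098 at 24 h on the log2 scale (adjusted p of the interaction 2.36e-22 and 1e-17). The lines differed 2.19-fold before treatment, with HepG2 lower (log2 −1.13 ± 0.088), and by log2 0.13 ± 0.042 at 24 h, where their libraries overlapped.

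CCND3, which encodes cyclin D3, differed less and was called in no comparison. Its HepG2 levels were 130.2 CPM untreated, 216 to 247 CPM at 12 h and 201 to 230.2 CPM at 24 h. Its Huh-7 levels were 118 to 126 CPM untreated, 170.35 to 179 CPM at 12 h and 161 to 169.9 CPM at 24 h. Every treated library was above every untreated one in its line, by log2 0.83 ± 0.068 and 0.71 ± 0.068 in HepG2 and 0.50 ± 0.048 and 0.42 ± 0.048 in Huh-7 at 12 and 24 h. By FPKM the Huh-7 difference was smaller, at 71.9 ± 2.88 FPKM untreated, 76.2 ± 1.65 FPKM at 12 h and 75.6 ± 1.63 FPKM at 24 h. The third D-type cyclin gene, CCND2, was too scarce to be tested.

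Of the kinases that pair with these cyclins, CDK6 had the larger changes against untreated cells, and CDK4 was called nowhere. CDK6 stood at 7.95 CPM in untreated HepG2, at 86.1, 82.5 and 85.2 CPM at 12 h, and at 95.3, 88.8 and 90.3 CPM at 24 h. The Huh-7 values were 169, 162 and 156 CPM untreated, 401.2, 398.5 and 417 CPM at 12 h, and 293, 289 and 332 CPM at 24 h. Every HepG2 library, treated or not, thus lay below every Huh-7 library. CDK6 rose 10.6-fold at 12 h and 11.5-fold at 24 h in HepG2 (log2 3.41 ± 0.12 and 3.52 ± 0.12, adjusted p = 1.06e-33 and 1.06e-34). It rose 2.5-fold at 12 h in Huh-7 (log2 1.32 ± 0.042, adjusted p = 3.97e-37), and the 24 h difference there was 1.88-fold, short of the threshold. Without composition scaling, by plain library size, the Huh-7 value at 12 h was log2 0.91 and no longer called. The untreated HepG2 value rests on 92 reads.

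The change in CDK6 was larger in HepG2 than in Huh-7 by log2 2.09 ± 0.14 at 12 h and 2.61 ± 0.14 at 24 h (adjusted p of the interaction 1.43e-19 and 7.35e-25). Between the lines, CDK6 was 20.4-fold lower in HepG2 than in Huh-7 before treatment, 4.8-fold lower at 12 h and 3.33-fold lower at 24 h.

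CDK4 stood at 188 CPM in untreated HepG2, at 261, 261 and 268 CPM at 12 h, and at 253, 251.1 and 261 CPM at 24 h. In Huh-7 the levels were 200.1, 202 and 199.9 CPM untreated, 323, 333.7 and 325.2 CPM at 12 h, and 174, 174 and 171 CPM at 24 h. Its HepG2 libraries at 12 and 24 h overlapped, whereas in Huh-7 the 24 h libraries lay below the untreated ones and the 12 h libraries above them. Relative to untreated cells the log2 difference was 0.49 ± 0.054 and 0.44 ± 0.054 in HepG2 and 0.70 ± 0.037 and −0.22 ± 0.039 in Huh-7 at 12 and 24 h. Between 12 and 24 h in Huh-7 the log2 difference was −0.92 ± 0.038 for CDK4, short of 2-fold, and −0.41 ± 0.041 for CDK6. The expected counts of CDK4 were not whole in 16 libraries and those of CDK6 in 11, which RSEM gives where it divides reads that fit more than 1 gene.

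The E-type cyclins split between the lines: CCNE1 rose in Huh-7 and CCNE2 in HepG2. CCNE1, which encodes cyclin E1, stood at 21.95 CPM in untreated HepG2, at 36.95, 38.9 and 39.7 CPM at 12 h, and at 23.7, 22.2 and 24.1 CPM at 24 h. In Huh-7 it stood at 23.97, 26.6 and 25.3 CPM untreated, at 83.2, 84.1 and 82.1 CPM at 12 h, and at 65.5, 65.7 and 58.1 CPM at 24 h. On the TMM scale the HepG2 libraries at 24 h lay just above the untreated one, but by FPKM they lay below it, at 11.4 to 11.95 against 13.4 FPKM. In Huh-7 every treated library was far above every untreated one. CCNE1 rose 3.29-fold at 12 h and 2.5-fold at 24 h in Huh-7 (log2 1.72 ± 0.064 and 1.32 ± 0.066, adjusted p = 4.01e-34 and 1.43e-27). The 24 h call was lost by plain library size (log2 0.97). In HepG2 the difference was log2 0.81 ± 0.11 at 12 h and 0.09 ± 0.11 at 24 h (adjusted p = 0.497), a value that turned to −0.05 by upper-quartile scaling, −0.18 by plain library size and −0.19 by limma on FPKM. The HepG2 change minus the Huh-7 change was −0.91 ± 0.13 at 12 h, short of 2-fold, and −1.23 ± 0.13 at 24 h (adjusted p of the interaction 3.83e-12).

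CCNE2, which encodes cyclin E2, stood at 9.42 CPM in untreated HepG2, at 39.2, 34.1 and 38.1 CPM at 12 h, and at 39.9, 35.3 and 32.4 CPM at 24 h. Huh-7 libraries held 8.38, 6.37 and 6.63 CPM untreated, 9.62, 12.1 and 8.7 CPM at 12 h, and 7.13, 9.24 and 8.65 CPM at 24 h. The treated HepG2 libraries stood apart from all other libraries, and the Huh-7 groups at 24 h and untreated overlapped. CCNE2 rose 3.94-fold at 12 h and 3.8-fold at 24 h in HepG2 (log2 1.98 ± 0.15 and 1.93 ± 0.15, adjusted p = 8.32e-18 and 2.09e-17). In Huh-7 the difference was log2 0.51 ± 0.14 and 0.23 ± 0.15 (adjusted p = 0.00101 and 0.143). The change was larger in HepG2 than in Huh-7 by 1.47 ± 0.21 at 12 h and 1.70 ± 0.22 at 24 h (adjusted p of the interaction 3.92e-08 and 6.71e-10).

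CDK2, the kinase of both E-type cyclins, stood at 164 CPM in untreated HepG2, at 418.3, 419.8 and 411 CPM at 12 h, and at 359.95, 359 and 354 CPM at 24 h. The Huh-7 values were 182, 182.3 and 173 CPM untreated, 641, 633 and 644 CPM at 12 h, and 641.7, 644 and 604 CPM at 24 h. Treated libraries lay far above untreated ones in both lines, and the 2 treated times overlapped in Huh-7. CDK2 rose 2.53-fold and 2.18-fold in HepG2 at 12 and 24 h (log2 1.34 ± 0.056 and 1.12 ± 0.056, adjusted p = 1.04e-30 and 6.37e-27) and 3.57-fold and 3.52-fold in Huh-7 (log2 1.84 ± 0.037 and 1.82 ± 0.037, adjusted p = 1.89e-48 and 3.24e-48). By plain library size the HepG2 values were log2 0.94 and 0.85, under the threshold. The difference between the lines, −0.50 ± 0.066 at 12 h and −0.69 ± 0.065 at 24 h, was under 2-fold.

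Neither inhibitor gene was called against untreated cells in either line. CDKN1B, which encodes p27, stood at 90.5 CPM in untreated HepG2, at 152.2, 151 and 151 CPM at 12 h, and at 77.7, 81.2 and 77.55 CPM at 24 h. In Huh-7 the levels were 39.3, 41.8 and 40.8 CPM untreated, 74.7, 80.1 and 86.5 CPM at 12 h, and 29.8, 30.3 and 31.8 CPM at 24 h. In each line the 12 h libraries were highest and the 24 h libraries lowest, with no overlap between times. Between 12 and 24 h CDKN1B fell by 1.39 on the log2 scale in Huh-7 (SE 0.063, adjusted p = 7.11e-29), the only call among the 10 genes between the treated times of that line, where 13.0% of all genes were called. In HepG2 the same comparison gave log2 −0.94 ± 0.049, just short of 2-fold. None of the 10 genes was called there by edgeR, DESeq2 or limma, where edgeR called 11.8% of all genes. An unadjusted edgeR p under 0.05 was found for 7 of the 10. By adjusted p alone 6 of the 10 passed, against 61.7% of all genes.

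Relative to untreated cells, CDKN1B differed by log2 0.74 ± 0.068 and −0.20 ± 0.07 in HepG2 and by 0.98 ± 0.057 and −0.41 ± 0.067 in Huh-7 at 12 and 24 h. The Huh-7 value at 12 h was 1.98-fold, and it passed the threshold at log2 1.01 when untreated replicate 2 or 12 h replicate 1 was left out. HepG2 held 2.23-fold more CDKN1B than Huh-7 before treatment (log2 1.15 ± 0.073) and 2.57-fold more at 24 h (log2 1.36 ± 0.062).

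CDKN2A stood at 215 CPM in untreated HepG2, at 286.6, 292 and 291 CPM at 12 h, and at 194, 205 and 219 CPM at 24 h. In Huh-7 it stood at 183, 189 and 207 CPM untreated, at 274.7, 278 and 275 CPM at 12 h, and at 312, 321 and 293 CPM at 24 h. On the TMM scale the 24 h libraries of HepG2 lay on both sides of the untreated one, and those of Huh-7 were the highest of that line. By FPKM the HepG2 libraries at 24 h all lay below the untreated one, at 160 to 178 against 216 FPKM. No comparison was called, the log2 differences from untreated cells being 0.43 ± 0.06 and −0.06 ± 0.06 in HepG2 and 0.51 ± 0.043 and 0.68 ± 0.042 in Huh-7 at 12 and 24 h. The gene-level count does not separate transcripts for p16 from those for p14ARF, the other protein of the locus, which stabilises p53, and it was not whole in any library.

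RB1, the target of these kinases, was scarce per length, at 6.88 to 12.45 FPKM over the group means, and was called in no comparison. On the CPM scale it stood at 42.2 in untreated HepG2, at 60.55 to 67.7 at 12 h and at 59.03 to 66.3 at 24 h. Huh-7 libraries held 40.5 to 43.6 CPM untreated, 34.3 to 37.1 CPM at 12 h and 53.5 to 56.96 CPM at 24 h. The 12 h libraries of Huh-7 were thus the lowest of that line and those of HepG2 lay above the untreated one, a difference between the lines of log2 0.84 ± 0.11 that is under 2-fold.

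Of the 10 genes, 3 differed between the lines in their 12 h change (CCND1, CCNE2 and CDK6, all with the larger change in HepG2), against 17.8% of all genes. At 24 h the same 3 differed and CCNE1 joined them with the smaller change in HepG2, 4 in all, against 23.9% of all genes. By the adjusted p alone 9 differed at 12 h and 8 at 24 h, against 52.1% and 60.1% of all genes. Compared directly, HepG2 differed from Huh-7 in 3 genes before treatment (CDKN1B higher, CCND1 and CDK6 lower), against 26.8% of all genes. At 12 h the count was 3 (CCNE2 higher, CCNE1 and CDK6 lower) against 33.9%, and at 24 h it was 4 (CCNE2 and CDKN1B higher, CCNE1 and CDK6 lower) against 36.5%. Without the fold threshold 5, 9 and 10 of the genes differed between the lines before treatment, at 12 h and at 24 h, against 69.9%, 77.1% and 78.8% of all genes. Between 12 and 24 h, 6 passed by adjusted p alone in HepG2 and 7 in Huh-7, against 61.7% and 61.6%.

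Ratios of FPKM within a library do not depend on how libraries are scaled to each other. The ratio of CDK6 to CDK4 was 0.00723 in untreated HepG2, 0.0536 to 0.0563 at 12 h and 0.0589 to 0.0644 at 24 h, and in Huh-7 it was 0.133 to 0.143, 0.203 to 0.218 and 0.284 to 0.33 at the 3 times. CDK6 transcripts thus gained on CDK4 transcripts in every treated library of both lines, and CDK4 stayed the more abundant in all 16 libraries. The ratio of CCND3 to CCND1 was 8.46 in untreated HepG2, 2.34 to 2.77 at 12 h and 1.73 to 1.91 at 24 h, and in Huh-7 it was 3.33 to 3.87, 2.71 to 2.8 and 1.38 to 1.65. The lines, apart before treatment, overlapped in this ratio at 12 h.

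The ratio of CCNE2 to CCNE1 was higher in treated than in untreated HepG2 and lower in treated than in untreated Huh-7. It was 0.299 in untreated HepG2, 0.609 to 0.74 at 12 h and 0.955 to 1.2 at 24 h, and in Huh-7 it was 0.164 to 0.25, 0.0741 to 0.1 and 0.0768 to 0.106. The log2 ratio of HepG2 over Huh-7 libraries differed by 0.6 before treatment, 3.0 at 12 h and 3.54 at 24 h. The ratio of CDKN1B to CDK2, inhibitor to kinase, was lower at each later time in both lines: 0.498 in untreated HepG2, 0.321 to 0.325 at 12 h and 0.193 to 0.202 at 24 h, and 0.196 to 0.213, 0.104 to 0.119 and 0.0413 to 0.047 in Huh-7. The groups did not overlap within either line. The ratio of CDKN2A to CDK4, also inhibitor to kinase, took another course in Huh-7. There it was 1.56 to 1.76 untreated, 1.41 to 1.44 at 12 h and 2.9 to 3.12 at 24 h. In HepG2 this ratio was 1.97 untreated, 1.86 to 1.91 at 12 h and 1.3 to 1.42 at 24 h.

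**Figure D3:**
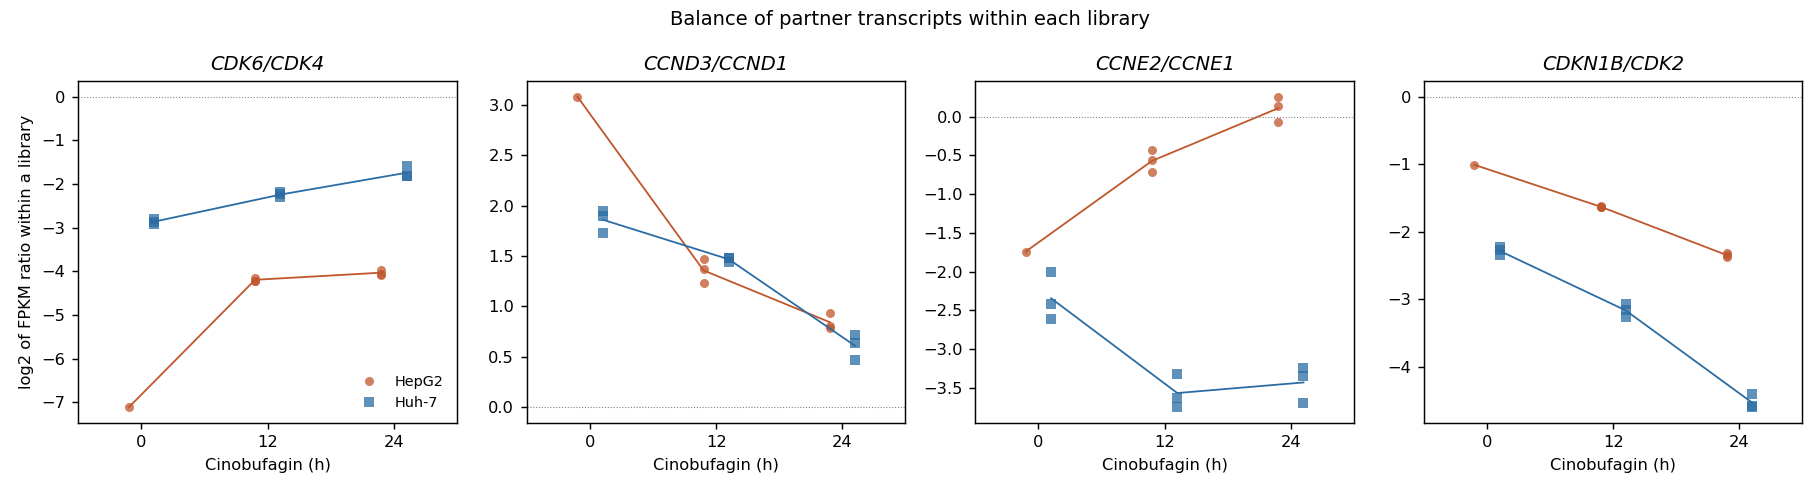
Log2 of the FPKM ratio of paired genes within a library (y axis) against hours of cinobufagin (x axis, 0 is untreated), in HepG2 (circles) and Huh-7 (squares), with a dotted line where both genes are equal. Points are libraries and lines join group means; CCNE2/CCNE1 ends at a mean of 0.11 in HepG2 and −3.43 in Huh-7 at 24 h, and CDKN1B/CDK2 declines in both.

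Around the 10 genes, 45 of 47 other genes of the G1 pathway could be tested, CCND2 and CCNA1 being too scarce. In HepG2, 19 rose and 4 fell at 12 h, and 14 rose and 4 fell at 24 h. In Huh-7, 19 rose and 5 fell at 12 h, and 18 rose and 3 fell at 24 h. Of all genes in HepG2, 14.3% at 12 h and 14.1% at 24 h were called higher, and 37.8% and 36.3% were called in either direction. Of all genes in Huh-7, 16.8% at 12 h and 17.8% at 24 h were called higher, and 43.8% and 44.6% in either direction. The median log2 change of the 45 genes was 0.82 and 0.72 in HepG2 and 0.84 and 0.73 in Huh-7, against −0.09 and −0.01 in HepG2 and −0.10 and −0.04 in Huh-7 over all genes. The counts for the smaller lists that follow are to be read against the same shares, and with few genes in a list they show nothing particular to it.

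The other CDK inhibitors diverged from gene to gene. CDKN1A, which encodes p21, the inhibitor induced by p53, averaged 69.7 CPM in untreated HepG2, 209 ± 5.16 CPM at 12 h and 125 ± 6.08 CPM at 24 h. In Huh-7 it averaged 15.5 ± 0.62, 191 ± 2.85 and 90.8 ± 3.08 CPM. CDKN1A rose 3.0-fold at 12 h in HepG2, and 12.3-fold at 12 h and 5.86-fold at 24 h in Huh-7, and its change was smaller in HepG2 by 2.04 (SE 0.096) and 1.71 (SE 0.098) on the log2 scale. CDKN2D (p19, an inhibitor of CDK4 and CDK6) rose at both times in both lines. The change was log2 2.15 ± 0.21 and 1.36 ± 0.23 in HepG2 and 2.37 ± 0.17 and 1.90 ± 0.18 in Huh-7. CDKN2D was scarce in untreated cells, at 3.11 CPM in the 1 HepG2 library and 1.92 ± 0.16 CPM in Huh-7. CDKN2C (p18, of the same family) fell in HepG2 by 1.92 at 12 h and 1.69 at 24 h, and in Huh-7 the values were −0.36 and −0.53. CDKN1C (p57) also fell in HepG2, by 1.05 and 1.52, where Huh-7 gave 0.34 and 0.67. CDKN3, a phosphatase that acts on CDK2, fell in both lines, by 1.21 and 1.30 in HepG2 and by 2.08 and 2.32 in Huh-7.

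Among the relatives of RB1, RBL2 (p130) fell in both lines, to 10.4 ± 1.57 CPM at 12 h and 16.04 ± 1.12 CPM at 24 h in HepG2, against 60.6 CPM untreated, and to 8.3 ± 1.16 and 8.34 ± 0.91 CPM in Huh-7, against 58.7 ± 1.4 CPM untreated. RBL1 (p107) rose in HepG2 by 1.11 and 1.18 on the log2 scale, and its Huh-7 values, 0.82 and 0.98, missed the threshold. Of the 10 E2F and DP factors, 7 rose at 12 h and 4 at 24 h in HepG2, and 5 rose and 1 fell at 12 h and 4 rose at 24 h in Huh-7. E2F1, an activator of S-phase genes, averaged 83.1 CPM in untreated HepG2, 179 ± 3.74 CPM at 12 h and 93.6 ± 5.81 CPM at 24 h, and 50.5 ± 3.97, 249.7 ± 1.5 and 295 ± 11.8 CPM in Huh-7. Its 24 h change was smaller in HepG2 than in Huh-7 by 2.37 on the log2 scale (SE 0.088, adjusted p of the interaction 1.42e-32). Of 6 genes for the MuvB core and for MYBL2, which joins that core in an activator complex, 1 rose at 12 h and 2 at 24 h in HepG2, where 14.3% and 14.1% of all genes did. In Huh-7 3 and 4 rose, MYBL2 among them at both times, where 16.8% and 17.8% of all genes did. LIN52, a subunit of the MuvB core of the DREAM repressor complex, rose 7.52-fold and 4.9-fold in HepG2 and 5.42-fold and 8.19-fold in Huh-7.

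Of 7 genes that activate, restrain or fold the kinases, 4 rose at 12 h and 2 at 24 h in HepG2, and 6 and 5 in Huh-7. CDC25A, the phosphatase that activates CDK2, rose 10.8-fold and 8.82-fold in HepG2 and 7.66-fold and 5.83-fold in Huh-7 at 12 and 24 h. CCNH, the cyclin of the CDK-activating kinase, rose 2.05-fold and 2.08-fold in HepG2 and 3.58-fold and 5.0-fold in Huh-7. The chaperone partner CDC37, which helps fold CDK4, rose in Huh-7 (log2 1.35 and 1.56), and in HepG2 the values were 0.43 and 0.13. WEE1 and PKMYT1, the genes of this list that restrain kinases, were also higher in treated cells. WEE1 averaged 46.75 CPM in untreated HepG2, 185 ± 7.16 CPM at 12 h and 88.9 ± 2.63 CPM at 24 h. Its Huh-7 means were 69.96 ± 4.09, 384 ± 5.55 and 152 ± 8.28 CPM. PKMYT1 averaged 102 CPM in untreated HepG2, 216 ± 10.5 CPM at 12 h and 200 ± 16.8 CPM at 24 h. In Huh-7 PKMYT1 averaged 70.4 ± 1.7, 188 ± 7.34 and 194 ± 3.66 CPM.

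Of 13 genes for turnover of cyclins and inhibitors, 4 rose at each time in HepG2, and in Huh-7 3 rose at each time and 2 fell at 12 h and 1 at 24 h. Of all genes, 14.3% and 14.1% rose in HepG2 and 16.8% and 17.8% in Huh-7, where 43.8% and 44.6% were called in either direction. SKP2, the F-box protein that marks p27 for degradation, was called in opposite directions: it averaged 129.7 CPM in untreated HepG2, 379.8 ± 4.31 CPM at 12 h and 373 ± 9.37 CPM at 24 h, and 204 ± 3.85, 48.2 ± 1.62 and 45.9 ± 4.92 CPM in Huh-7. The change in SKP2 was larger in HepG2 than in Huh-7 by log2 3.63 ± 0.082 at 12 h and 3.67 ± 0.082 at 24 h (adjusted p of the interaction 8.78e-44 and 3.55e-44). USP2, a deubiquitinase of cyclin D1, rose in HepG2 at 12 h and fell in Huh-7, to 53.3 ± 3.26 CPM against 17.8 CPM untreated and to 1.66 ± 0.28 CPM against 11.6 ± 1.18 CPM untreated. FBXW7, which marks cyclin E for degradation, rose 3.18-fold and 3.51-fold in Huh-7, and in HepG2 the values were log2 0.49 ± 0.21 and 0.73 ± 0.2.

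**Figure D4:**
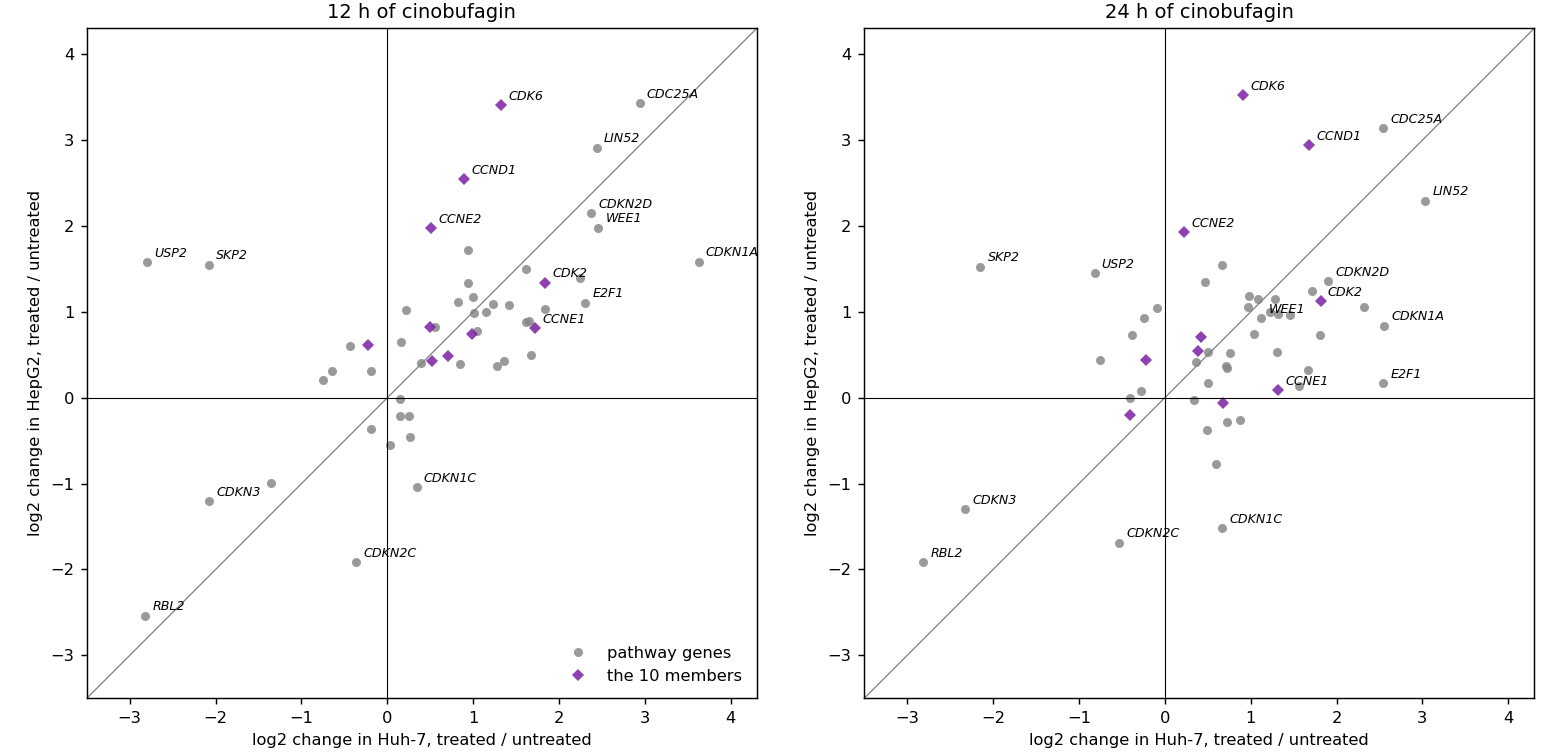
Log2 change, treated over untreated, in HepG2 (y axis) against Huh-7 (x axis) at 12 h (left) and 24 h (right) for the 10 genes (diamonds) and 45 other G1 pathway genes (circles). The diagonal marks equal change; CDK6, CCND1, CCNE2 and SKP2 lie above it and CDKN1A and E2F1 below it at both times.

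The 2 genes whose log2 level followed each of the 10 most closely over the 16 libraries were looked up among 9029 genes averaging at least 10 CPM. These correlations share libraries and groups, and are descriptions. CDK2 was followed by OSER1 (Pearson r = 0.9975) and NMT2 (0.9953), CCNE1 by IP6K2 (0.9952) and BLZF1 (0.9886), and CCNE2 by B4GALT1 (0.984) and NKD2 (0.9828). CCND1 was followed by EEF1E1 (0.981) and PIK3C2A (0.9763), and CDK6 by HMGB1 (0.9806) and FBL (0.9737). The values for the nearest genes of the other members were 0.9669 for CDK4 (CCDC12), 0.9741 for RB1 (WDR81), 0.9789 for CCND3 (EHD1), 0.9793 for CDKN2A (SNRPA) and 0.9845 for CDKN1B (MYOF). None of these nearest genes was another of the 10.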

How the data were processed

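Per the labels' protocols, RNA was extracted from HepG2 and Huh-7 cells with TRIzol and libraries were made on oligo-dT beads for Illumina sequencing. HISAT, Bowtie2, RSEM and hg19 are listed, without versions, per the submitters' processing notes. The authors deposited, per library, RSEM expected counts (estimated counts, reads shared between genes divided among them), FPKM values (scaled for transcript length and sequencing depth, per the file headers) and a weighted transcript length in bases per gene. Each deposited table lists genes above 0, and an unlisted gene was entered as 0.

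After rounding, expected counts went into edgeR 4.0.16 (R 4.3.3). The filter filterByExpr kept 13633 of 16697 genes (the 3064 removed held 0.0231% of counts), TMM scaled the libraries, and 1 quasi-likelihood model with 6 groups was fitted over 16 libraries (10 residual degrees of freedom, biological coefficient of variation 0.0318). P-values were Benjamini-Hochberg adjusted over all 13633 genes in each of 11 comparisons, and the code was tested on simulated data. A count of 0 allows 3 counts, or 0.287 to 0.314 CPM, counting error only. Alternatives were RLE, upper-quartile, library-size and library-median scaling, no filter, DESeq2 1.42.0, limma 3.58.1 on log2(FPKM + 0.5) and log2(FPKM + 0.1), a replicate block, fits within a line, and leaving out each library. The labels' growth protocol speaks of RPKM and division by a sample median, hence the library-median alternative.

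The 10 genes, the pathway lists, the marker lists and the named-gene rule (all 10 genes, called genes of the pathway lists, the 2 genes of closest pattern) were chosen with earlier results of these data known. Gene names came from Entrez identifiers. Promoter windows came from RefSeq, GRCh38.p14, while the deposited values use hg19, so the windows are the only coordinates given.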

Additional observations from a re-analysis of the deposited data

Results flagged for a closer look

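The changes of 4 of the 10 genes differed between the lines by an interaction test (edgeR, Benjamini-Hochberg adjusted p under 0.05 and at least 2-fold), given here as the HepG2 change minus the Huh-7 change in log2. CCND1 gave 1.65 at 12 h and 1.26 at 24 h, CCNE2 gave 1.47 and 1.70, CDK6 gave 2.09 and 2.61, and CCNE1 gave −1.23 at 24 h. All rest on the 1 untreated HepG2 library.

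By the same test the change was larger in HepG2 for 3 and smaller for 5 of the 45 pathway genes at 12 h, which is the rate of all genes (17.8% called). At 24 h it was larger for 7 and smaller for 11, where 23.9% of all genes were called. At both times these were SKP2 (3.63 and 3.67), USP2 (4.38 and 2.27), CDKN1A (−2.04 and −1.71), CDKN1C (−1.39 and −2.18), CDKN2C (−1.56 and −1.16), E2F1 (−1.20 and −2.37) and FBXW7 (−1.17 and −1.09). At 12 h alone LIN9 was called, at 1.04. At 24 h alone the called genes were CCNA2 (1.19), CDKN3 (1.02), TFDP1 (1.12), CUL1 (1.16) and CUL4A (1.13) with the larger value in HepG2, and CDKN2B (−1.37), LIN37 (−1.35), CCNH (−1.27), MNAT1 (−1.13), CDC37 (−1.43) and AMBRA1 (−1.01) with the smaller one.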

How the results depend on the processing

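Of 2760 alternative values of the 10 genes, 2699 kept their direction and their side of the threshold. Dropping the fold threshold moved the count of called genes by over 1.5 times in all 11 comparisons, and among the scalings division by the library median moved it in 2. The cause of the scaling shift was not tested. By plain library size the median log2 change of all genes was −0.49 and −0.28 in HepG2 and −0.51 and −0.39 in Huh-7 at 12 and 24 h, against −0.09, −0.01, −0.10 and −0.04 with TMM; upper-quartile scaling gave −0.27, −0.15, −0.37 and −0.32. Calls lost by plain library size or by limma on FPKM were CCNE1 in Huh-7 at 24 h (0.95 to 0.97), CDK2 in HepG2 at 12 h (0.94 to 0.97) and 24 h (0.85 to 0.88, and 0.98 by upper quartile) and CDK6 in Huh-7 at 12 h (0.89 to 0.91). Division by the library median added CCND1 (1.07) and CDKN1B (1.16) in Huh-7 at 12 h, CDK6 in Huh-7 at 24 h (1.02), CCND3 in HepG2 at 12 h (1.01) and CDKN1B in HepG2 at 24 against 12 h (−1.02). The counts of called genes it moved by over 1.5 times were 5 in Huh-7 at 12 h, against 3, and 1 in HepG2 at 24 against 12 h, against 0.

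Without a fold threshold, the counts against untreated cells were 10 and 8 in HepG2 and 10 and 9 in Huh-7 at 12 and 24 h. For 24 against 12 h they were 6 in HepG2 and 7 in Huh-7, for the line differences 9 and 8, and for HepG2 against Huh-7 5, 9 and 10 before treatment, at 12 h and at 24 h.

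The sign changed in 41 values of 12 results, none of them called and none over 0.23 in size with TMM. By plain library size and limma on FPKM, HepG2 at 24 against 12 h gave 0.01 for CCND3, 0.08 for CCNE2 and CDK4 and 0.06 for RB1, and Huh-7 gave 0.04 for CDK2. CCNE1 in HepG2 at 24 h gave −0.05 by upper quartile, −0.18 by library size and −0.19 by limma, and CCNE2 in Huh-7 at 24 h gave −0.05, −0.13, −0.11 (FPKM + 0.5) and −0.12 (FPKM + 0.1). For HepG2 against Huh-7 untreated, CCND3 gave −0.05 by upper quartile and −0.02 by library median, and RB1 gave −0.13 and −0.10 by these, −0.06 by library size and by limma, and −0.04 with no filter and with the replicate block. CDKN2A gave 0.05 in HepG2 at 24 h and −0.02 for HepG2 against Huh-7 at 12 h by library median, and 0.004 for the 12 h line difference by upper quartile. Leaving out 24 h replicate 3 turned CCNE2 in HepG2 (0.02) and CDK2 in Huh-7 (0.0082) at 24 against 12 h, and 4 other omissions turned RB1 untreated (−0.04 to −0.01).

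Leaving out 1 library at a time gave 3 to 4 calls in Huh-7 at 12 h, the addition being CDKN1B (1.01), and changed no other count. A comparison with untreated HepG2 could not be fitted without that library.

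Same-numbered libraries deviated together with correlations of −0.084 to 0.137 over 12 pairs, so the numbers were not taken to pair cultures. With the replicate block within each line, the counts were 4 and 4 in HepG2 and 3 and 3 in Huh-7 at 12 and 24 h, the same as without it, and no call changed. Depth limits CDK6 in untreated HepG2 (92 counts) and CCNE2 in Huh-7 more than the other genes.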

Other observations

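The deposited tables also give each gene's weighted transcript length, the mean length of its transcripts weighted by their estimated use. For CDK2 it was 2247.86 to 2257.34 bases at 12 h and 2265.91 to 2268.87 bases at 24 h in HepG2, against 2299.17 bases untreated. In Huh-7 it was 2249.51 to 2259.9 and 2251.82 to 2263.69 bases, against 2292.13 to 2295.2 bases untreated. Every treated library of both lines thus had a shorter weighted length for CDK2 than every untreated one.

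For CDKN2A the weighted length was 1195.26 to 1197.75 bases at 12 h and 1208.58 to 1213.28 bases at 24 h in HepG2, against 1188.04 bases untreated, and 1211.4 to 1215.44 and 1207.9 to 1210.64 bases in Huh-7, against 1200.08 to 1203.4 bases untreated. Treated libraries were longer than untreated ones in both lines, by a difference that is small beside the length itself. Which transcripts are involved was not analysed here. CCND1, CCNE2, CDK4, CDKN1B and RB1 had 1 length in all libraries.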
